A study of Mus musculus with 3 samples.

Results

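Lymphatic endothelial cells of mouse back skin were defined by a rule on single-cell transcripts: a cell held at least 3 of Prox1, Ccl21a, Mmrn1, Lyve1 and Flt4, at least 2 of the endothelial genes Pecam1, Cdh5, Cldn5 and Egfl7, and no transcript of Ptprc, C1qa or Csf1r, which mark leukocytes and macrophages. The rule selected 190 of 16235 cells. At E13.5 these were 133 of 5962 cells (2.23%), followed by 46 of 5208 (0.883%) at E16.5 and by 11 of 5065 (0.217%) in newborn skin (P0). The exact binomial intervals of these shares were 1.87 to 2.64%, 0.647 to 1.18% and 0.109 to 0.388%. They were set against cells with at least 4 of Pecam1, Cdh5, Kdr, Cldn5, Esam and Egfl7 and at most 1 of the 5 lymphatic genes, called blood endothelial cells here, of which there were 89, 260 and 262. Where 3 values stand in a row below, they belong to E13.5, E16.5 and P0 in this order. Because transcripts chose the cells, the rule's genes describe the choice and are no finding, and they were left out of every count of genes.

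Dorsal skin of wild-type C57BL/6 males was profiled by droplet sequencing of transcript 3′ ends in embryos (E13.5 and E16.5, days after conception) and on the day of birth (P0, postnatal day 0), with 1 library per stage and skin pooled over animals. Fetal skin was digested with trypsin and newborn skin with collagenase IV, so stage and digestion cannot be told apart between P0 and the fetal stages. Stage and library cannot be told apart at any stage. With 1 library per stage no comparison was tested, and each interval (95%) covers counting error only, not the spread between animals. In such data the number of cells of a type also moves with how well the tissue released it.

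Besides the lymphatic endothelium, skin macrophages can carry Lyve1, which is why the rule excludes leukocyte genes. Lymphatic vessels drain fluid and immune cells from the skin. Their endothelium arises mainly from veins, where Prox1, a homeobox factor, sets and keeps lymphatic identity, and it grows by VEGF-C signalling through VEGFR3 (Flt4) and neuropilin-2. Initial capillaries carry the hyaluronan receptor Lyve1 and secrete the chemokine Ccl21, whereas collecting vessels later form valves under Foxc2, Nfatc1 and connexins.

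The lymphatic cells held 1601281, 1010045 and 215330 unique molecular identifiers (UMIs, counted transcript molecules), with medians of 8347, 18995 and 13450 per cell. The blood endothelial medians were 7951, 14384.5 and 9686. At P0 a single cell held 31.2% of the lymphatic UMIs, and 1 UMI was worth 4.64 CPM (counts per 1000000 UMIs). Levels below are UMIs summed over the cells of a group and scaled to the group's total as CPM. Of 16119 barcodes, 115 occurred in more than 1 library, and 3 lymphatic cells carried such a barcode. The design text counts 15086 cells, whereas the table holds 16235, all of which meet the study's stated minimum number of genes per cell.

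The cells did not separate equally well at each stage. Among cells that met the endothelial and immune criteria, those with 0 to 5 lymphatic genes numbered 132, 75, 55, 49, 43 and 41 at E13.5, a gradual decline. At E16.5 they numbered 336, 164, 40, 7, 5 and 34, and at P0 322, 40, 3, 1, 2 and 8. At these later stages most lymphatic cells had all 5 genes and few lay between. The immune criterion removed 46, 9 and 2 cells that met the rest of the rule.

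**Figure D1:**
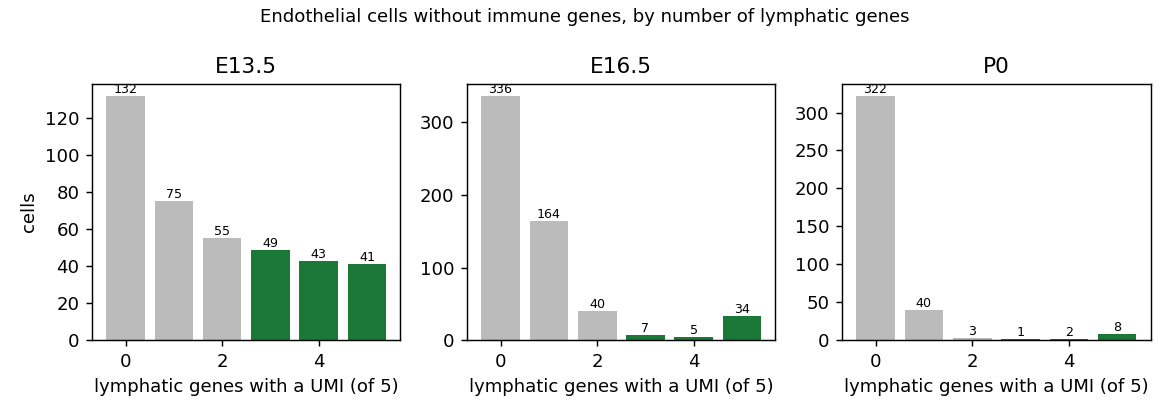
Number of cells that met the endothelial and immune criteria (y axis) by how many of 5 lymphatic genes had a UMI (x axis), for each stage, with lymphatic cells in green. The numbers fell gradually at E13.5, from 132 to 41, whereas E16.5 had 34 cells with all 5 genes and 5 with 4.

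Genes that the rule did not use showed what the cells near the threshold were. At E16.5, the 7 cells with exactly 3 lymphatic genes held Cd34, a surface protein of blood vessels, at 618 CPM and Flt1, the decoy receptor VEGFR1, at 171 CPM. In the 34 cells with all 5 genes these levels were 21.5 and 4.03 CPM. The podoplanin gene Pdpn stood at 10.1 CPM and the reelin gene Reln at 0 in the 7 cells, against 199 and 398 CPM in the 34. The 40 cells just outside the rule, with 2 lymphatic genes, held Cd34 at 482, Flt1 at 203 and Pdpn at 2.88 CPM. Thus the 7 cells went against the lymphatic label at E16.5, and they are kept only because the rule names them. Their median of 26164 UMIs lay above the 17303 of the cells with 5 genes. The part of depth or of joined cells was not tested. At E13.5 the 49 cells with 3 genes held Flt1 at 94.3 and Plvap, a protein of blood capillaries, at 179 CPM, next to 103 and 223 CPM in the 55 cells just outside, with overlapping intervals, and 1.96 and 25.4 CPM in the 43 cells with 4 genes. Pdpn lay between, at 126 CPM against 68.3 CPM just outside and 199 CPM with 4 genes. Cd34 lay between as well, at 135.5 CPM (105.5 to 171.5) against 239.1 CPM (203.6 to 279.0) just outside and 31.28 CPM with 4 genes. Thus these 49 of the 133 cells held Flt1 and Plvap, but not Cd34, at about the level of the cells just outside. At P0 a single cell had 3 genes. The main blood vessel genes are therefore given below also for the 84, 39 and 10 cells with at least 4 lymphatic genes.

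**Figure D2:**
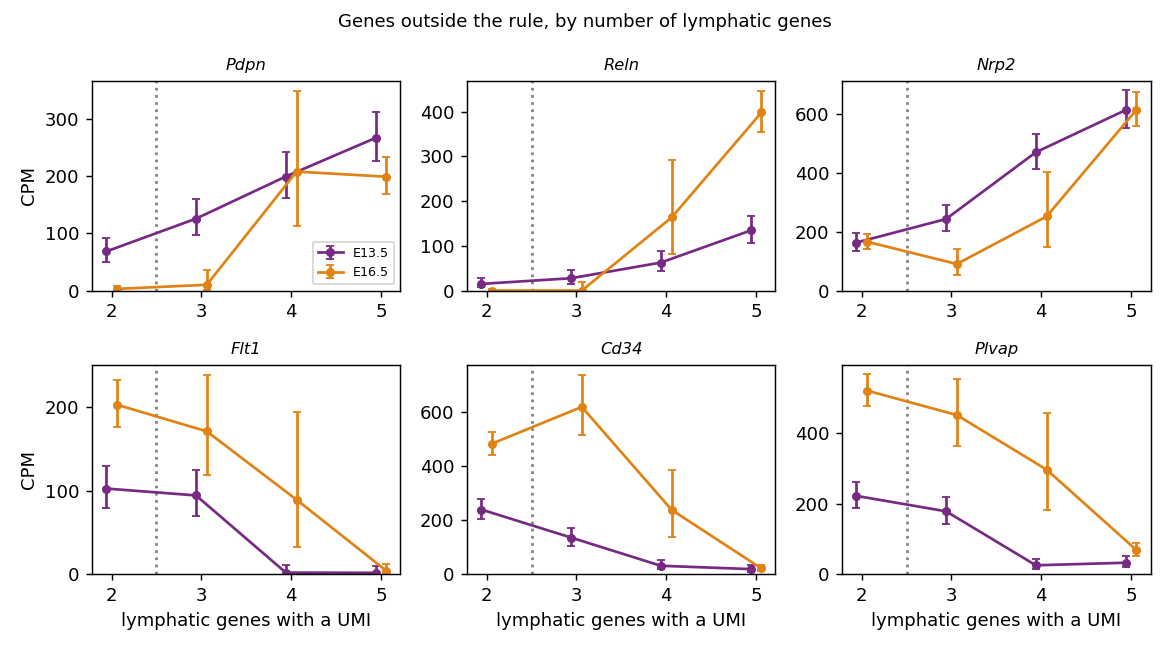
Level (CPM, y axis) of 6 genes outside the rule by the number of lymphatic genes per cell (x axis) at E13.5 and E16.5, with exact Poisson intervals as bars and the rule's threshold as a dotted line. At E16.5 cells with 3 lymphatic genes held Cd34 at 618 CPM and Reln at 0, like the cells just outside the rule.

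As a description of the choice, Ccl21a stood at 6381, 8035 and 12469 CPM in lymphatic cells, against 90.0, 3.53 and 3.95 CPM in blood endothelial cells. At P0 51.0% of its UMIs came from 1 cell. Lyve1 stood at 189, 1069 and 2155 CPM and Mmrn1, an extracellular multimerin, at 303, 810 and 929 CPM. Prox1 had a UMI in 99 of 133, 37 of 46 and 9 of 11 lymphatic cells. Ccl21a lies on mm10 chromosome 4 (42772860 to 42773993, minus strand) beside near-identical copies that the counting could split. The copy Gm21541 held 10.6, 47.5 and 13.9 CPM and Gm13304 0, 1.98 and 0 CPM, so the chemokine's total is uncertain by at least these amounts.

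A gene was counted as higher or lower when its log2 difference of CPM + 10 reached 1 (2-fold) and both groups together held at least 50 UMIs. Against blood endothelial cells, 95 of 5952 genes were higher in lymphatic cells at E13.5 (1.6%), next to 209 of 8345 at E16.5 (2.5%) and 377 of 6330 (5.96%) at P0. Lower were 121 (2.03%), 182 (2.18%) and 627 (9.91%). Counts of listed genes between the cell types below are to be read beside these shares of all genes. At every stage 30 of 5208 genes were higher (0.576%) and 54 were lower (1.04%). The larger shares at P0 go with only 11 lymphatic cells. With at least 4 lymphatic genes per cell, 350 genes instead of 182 were lower at E16.5. The comparison cells mattered as well: where the blood endothelial cells met the same endothelial and immune criteria as the lymphatic cells, 92 genes were lower at every stage and only 8 of the 54 were among them.

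The 12 genes highest at every stage by mean difference included Reln, Ptx3, Pdpn, Sgk3, Maf, Thy1, Pard6g, Stab1, Prss23, Nrp2 and Tbx1. Without cells of more than 2-fold the median UMIs, 11 of the 30 genes were still counted at every stage, and Reln, Ptx3, Pdpn, Sgk3, Maf, Pard6g, Nrp2 and Tbx1 were not. Of these 8, Nrp2 at P0 no longer reached the fold (0.84), while the others kept differences above 1 at each stage and fell short of 50 UMIs at 1 stage or more. Without the deepest lymphatic cell of each stage, 24 of the 30 were still counted, and Reln and Ptx3 were not. Reln, a secreted glycoprotein known from neuronal migration and made by lymphatic vessels, stood at 77.4, 304 and 348 CPM, against 2.31, 1.41 and 0 in blood endothelial cells. Its log2 difference was 2.83 (2.21 to 3.17), 4.78 (4.53 to 4.98) and 5.16 (4.79 to 5.48). The gene lies on mm10 chromosome 5 (21884454 to 22344702, minus strand). Lymphatic cells were the higher group at each stage. Reln had a UMI in 43.6, 80.4 and 100% of lymphatic cells and in 3.29, 2.71 and 1.52% of the cells in neither group. After thinning every cell to 3400 UMIs, Reln was found in 22 of 133, 28 of 46 and 8 of 11 lymphatic cells, against 1.78, 0.959 and 0.730% of the cells in neither group.

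Pdpn, the mucin-type glycoprotein that keeps lymph and blood apart, held 201, 162 and 246 CPM against 39.2, 2.82 and 2.31 CPM. At E16.5 30.5% of its UMIs came from 1 cell. Ptx3, a soluble pattern recognition protein, held 212, 221 and 395 CPM against 54.2, 3.06 and 0.659 CPM, with 62.4% of its P0 UMIs in 1 cell. Between E13.5 and E16.5 Ptx3 fell in blood endothelial cells, whereas in lymphatic cells it differed by 0.06 (log2). The blood endothelial cells also held Ccl21a at 90.0 CPM at E13.5, against 3.53 CPM at E16.5. The part of lymphatic transcripts among them in this fall was not tested. Sgk3, a serum and glucocorticoid regulated kinase, held 195, 133 and 186 CPM against 6.92, 13.4 and 10.2 CPM. Thy1, a GPI-anchored surface protein, held 164, 407 and 878 CPM against 19.6, 44.2 and 85.0 CPM. From stage to stage it passed the fold in lymphatic cells (1.26 and 1.09) but not in blood endothelial cells (0.87 and 0.81). Stab1, a scavenger receptor, held 175, 316 and 386 CPM against 39.2, 32.7 and 34.9 CPM. Pard6g, a cell polarity protein, and Prss23, a serine protease, stood between 93.7 and 543 CPM in lymphatic cells and at or below 62.6 CPM in blood endothelial cells.

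**Figure D3:**
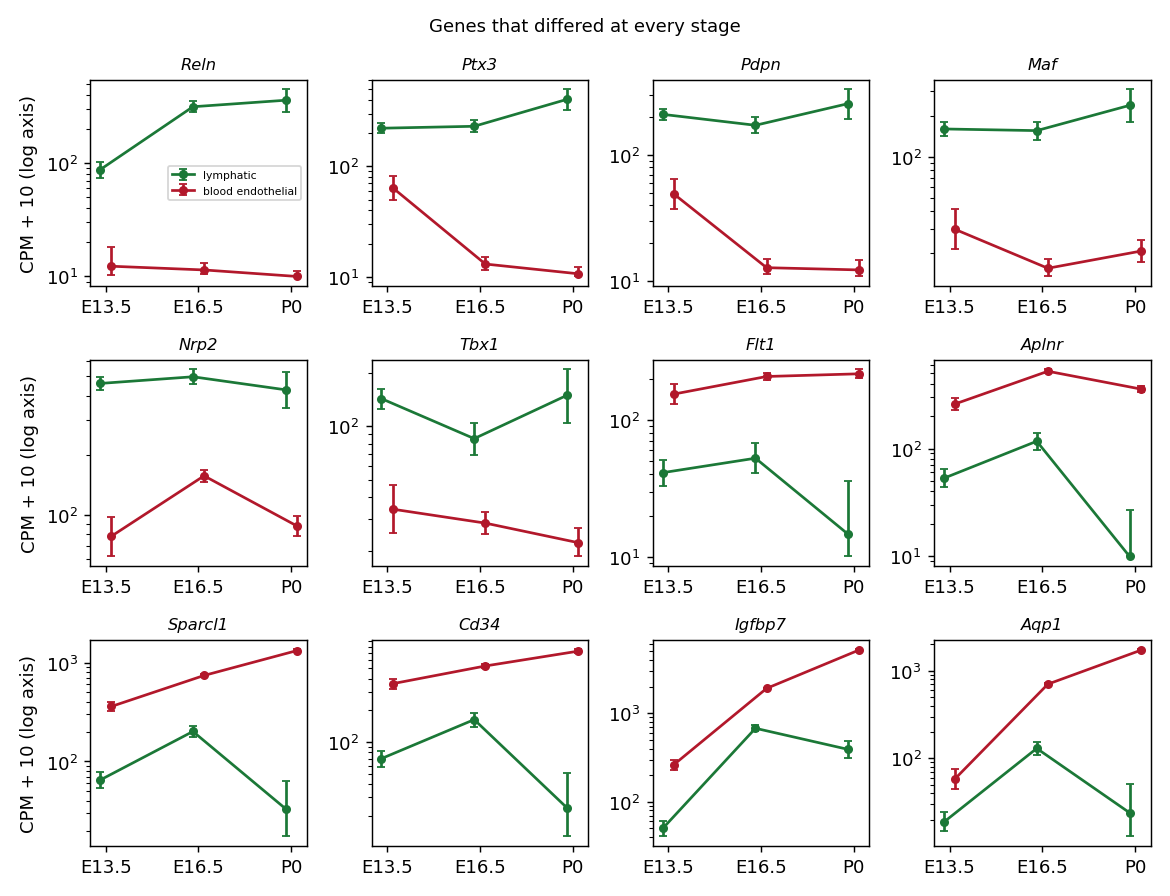
Level (CPM + 10, log axis) of 12 genes by stage in lymphatic (green) and blood endothelial cells (red), with exact Poisson intervals. The first 6 genes, from Reln to Tbx1, were higher in lymphatic cells at each stage and the last 6, from Flt1 to Aqp1, were lower.

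As sequence context for these genes, the 250 bases before the annotated start are shown for 3 of them, Reln, Ptx3 and Pdpn, which have the largest mean differences (RefSeq, GRCm38.p6, gene strand). RefSeq windows matched 11 of 17 genes looked up, the 5 lymphatic rule genes and the 12 highest genes. They were searched on both strands for CGGAAG, a core of ETS factor sites, and ACAATG, a core of SOX factor sites, since ETS factors and Sox18 act in endothelium. Capitals mark these letters.
Reln, chr5:22344706-22344955, minus strand: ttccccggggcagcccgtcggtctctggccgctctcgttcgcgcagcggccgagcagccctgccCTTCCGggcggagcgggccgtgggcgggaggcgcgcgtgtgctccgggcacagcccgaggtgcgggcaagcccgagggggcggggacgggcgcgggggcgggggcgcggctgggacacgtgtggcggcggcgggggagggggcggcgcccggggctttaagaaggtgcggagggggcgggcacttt
Ptx3, chr3:66219637-66219886, plus strand: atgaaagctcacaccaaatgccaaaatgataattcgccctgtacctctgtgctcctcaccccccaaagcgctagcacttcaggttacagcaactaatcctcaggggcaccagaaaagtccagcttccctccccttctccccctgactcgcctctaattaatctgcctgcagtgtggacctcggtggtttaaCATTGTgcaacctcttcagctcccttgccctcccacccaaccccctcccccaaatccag
Pdpn, chr4:143299565-143299814, minus strand: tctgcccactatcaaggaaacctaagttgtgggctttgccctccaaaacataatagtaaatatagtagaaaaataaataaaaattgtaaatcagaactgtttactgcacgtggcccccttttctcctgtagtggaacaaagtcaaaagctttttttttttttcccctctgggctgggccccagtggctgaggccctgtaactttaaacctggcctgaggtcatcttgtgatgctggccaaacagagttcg
The Reln window held CGGAAG on the opposite strand, the Ptx3 window held ACAATG on the opposite strand and the Pdpn window held neither. Of 32851 windows of this length, 13.6% held CGGAAG and 10.7% held ACAATG. A match is a description of letters, not a binding site.

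Lymphatic regulators and receptors other than the rule genes were taken as a list of 28 genes in the table. At E13.5 12 of its 18 genes with enough UMIs were higher and 1 was lower, with a median log2 difference of 1.65 (0.022 over all genes). At E16.5 12 of 21 were higher and 0 lower (median 1.58, all genes -0.033), and at P0 14 of 20 were higher and 1 lower (median 2.27, all genes 0.018). The list was named for these cells, so its direction is no independent evidence. Nrp2, the coreceptor for VEGF-C, held 451, 488 and 418 CPM against 68.1, 148 and 78.1 CPM, with 58.9% of its P0 UMIs in 1 cell. Maf, a basic leucine zipper factor, held 150, 146 and 228 CPM against 19.6, 5.41 and 10.5 CPM. Tbx1, a T-box factor needed for lymphatic growth, held 133, 75.2 and 139 CPM against 24.2, 18.6 and 12.2 CPM. Nr2f2 (COUP-TFII), a venous and lymphatic nuclear receptor, differed by 1.51, 0.95 and 1.93, so it missed the fold at E16.5, where it differed by 1.11 in cells with at least 4 lymphatic genes. Nts, the neuropeptide neurotensin, held 163, 47.5 and 381 CPM against 8.08, 0 and 2.31 CPM. Angpt2, a ligand of the receptor Tek, held 48.7, 79.2 and 88.2 CPM against 5.77, 15.5 and 23.4 CPM. Sox18, the factor that acts upstream of Prox1, differed little: 51.8, 81.2 and 144 CPM against 43.8, 75.2 and 102 CPM. Hhex, an endothelial homeobox gene, likewise differed by 0.46, 0.30 and 0.12.

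Ligand genes of the VEGF family stood at low to moderate levels. Vegfc, the ligand of VEGFR3, held 8.74, 3.96 and 9.29 CPM in lymphatic cells and 17.6, 10.7 and 10.5 CPM in the cells of neither group. Ccbe1, which helps to process VEGF-C, stood at 0.625, 0.990 and 0 CPM in lymphatic cells, against 3.48, 4.31 and 2.72 CPM in those other cells. Of the 11 axis genes outside the rule, 4, 4 and 3 had enough UMIs. Pgf, the placental growth factor gene, held 43.1, 13.9 and 18.6 CPM against 17.3, 2.82 and 1.98 CPM in blood endothelial cells, and at E13.5 its difference was 0.96, or 1.08 in cells with at least 4 lymphatic genes. Nrp2 was higher and Flt1 lower at each stage, and Vegfb was higher at P0, with 60.4 against 20.8 CPM.

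Of 21 general blood vessel genes, 9 of 16 with enough UMIs were lower at E13.5, 12 of 20 at E16.5 and 12 of 18 at P0, and none was higher. The medians were -1.20, -1.23 and -2.13, and the last was -1.84 with genes at 0 UMIs set to 3 UMIs. In the cells with at least 4 lymphatic genes 11 of 16, 14 of 20 and 13 of 18 were lower. The list was named for blood vessels, so its direction is no independent evidence. The comparison cells also had to hold at least 4 of 6 endothelial genes, against at least 2 of 4 for the lymphatic cells. Cd34 held 60.0, 154 and 13.9 CPM in lymphatic cells against 347, 516 and 716 CPM in blood endothelial cells. With at least 4 lymphatic genes it held 24.7, 39.5 and 14.2 CPM. Flt1 held 31.2, 42.6 and 4.64 CPM against 144, 197 and 207 CPM, and 1.83, 11.1 and 4.74 CPM in cells with at least 4 lymphatic genes. Cd34 and Flt1 were thus lower in these cells than in all lymphatic cells of the fetal stages. At E16.5, however, the 5 cells with exactly 4 lymphatic genes still held Cd34 at 238, Flt1 at 89.1 and Plvap at 297 CPM, so cells with at least 4 genes also include some blood vessel signal. Aplnr, the apelin receptor of sprouting and venous vessels, held 43.1 and 107 CPM and no UMI at P0, where 3 UMIs would be 13.9 CPM, against 249, 511 and 347 CPM. In cells with at least 4 lymphatic genes it held 0.916 and 37.0 CPM at the fetal stages. Plvap, which forms the diaphragms of fenestrae, held 76.8, 159 and 232 CPM against 333, 595 and 1156 CPM, and 29.3, 87.5 and 237 CPM with at least 4 lymphatic genes. Emcn, the sialoglycoprotein endomucin, held 65.0, 142 and 97.5 CPM against 292, 382 and 421 CPM, and 26.6, 91.2 and 99.5 CPM with at least 4 lymphatic genes. Against comparison cells gated like the lymphatic cells, Cd34, Flt1, Plvap, Emcn, Nrp1, Robo4 and Sox17 were no longer counted as lower at every stage. Aplnr still was. Kdr (VEGFR2), a comparison gene of the rule, held 320, 425 and 376 CPM against 260, 397 and 293 CPM.

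The 12 genes lowest at every stage were Aqp1, Sparcl1, Aplnr, Rgcc, Clec14a, Cd34, Flt1, Igfbp7, Ly6e, Pcdh1, Tmem255a and Col15a1. Against comparison cells gated like the lymphatic cells, Aqp1, Sparcl1, Rgcc, Cd34, Flt1, Igfbp7, Tmem255a and Col15a1 were no longer counted as lower at every stage. Without cells over 2-fold the median UMIs, Aqp1, Clec14a and Pcdh1 were no longer counted. Aqp1, the water channel, held 8.74, 120 and 13.9 CPM against 48.5, 693 and 1701 CPM. With at least 4 lymphatic genes it held 5.49, 37.0 and 14.2 CPM and differed by -1.92 at E13.5, where its 6 UMIs left it under the 50 UMIs needed to be counted. Sparcl1, a matrix protein, held 55.0, 191 and 23.2 CPM against 350, 730 and 1310 CPM, and 14.7, 41.9 and 23.7 CPM with at least 4 lymphatic genes. Igfbp7, a secreted binding protein of the vessel wall, held 40.0, 667 and 381 CPM against 253, 1902 and 5200 CPM, and 26.6, 374 and 384 CPM with at least 4 lymphatic genes. Both groups gained Igfbp7 between E13.5 and E16.5. Rgcc, Clec14a, Pcdh1, Tmem255a and Col15a1 had no UMI in the 11 lymphatic cells at P0.

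Lipid uptake is a trait of skin blood capillaries. Of 11 genes, 2 of 8 were lower at E13.5, 4 of 10 at E16.5 and 6 of 11 at P0, with medians of -0.68, -0.80 and -1.80, and 1 was higher, Apold1 at E16.5, an early response gene of endothelium. Fabp4, a fatty acid carrier, held 31.9, 287 and 427 CPM in lymphatic cells against 63.5, 2056 and 6495 CPM. At E16.5 45.5% of its lymphatic UMIs came from 1 cell, and cells with at least 4 lymphatic genes held 148 CPM. Gpihbp1, which holds lipoprotein lipase on capillaries, held 55.0, 264 and 177 CPM against 195, 826 and 1748 CPM, and 28.4, 142 and 180.1 CPM with at least 4 lymphatic genes. Against comparison cells gated like the lymphatic cells, Gpihbp1 was no longer counted as lower at every stage. Cd36, the fatty acid translocase, held 21.2, 118 and 18.6 CPM against 50.8, 539 and 1070 CPM, and 14.7, 70.3 and 19.0 CPM with at least 4 lymphatic genes. Among 20 matrix genes, 0 of 16 were higher and 6 lower at E13.5. At E16.5 3 of 18 were higher and 2 lower, and at P0 3 of 18 were higher and 5 lower. The medians were -0.33, -0.15 and -0.22. With at least 4 lymphatic genes per cell, 3 of 18 were higher and 7 lower at E16.5. The basement membrane collagen Col4a1 held 193, 481 and 516 CPM against 426, 970 and 1267 CPM. Fn1 (fibronectin) differed by 0.37, 1.88 and 3.10 and Timp2, a protease inhibitor, by 0.27, 1.84 and 3.03.

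Notch and arterial genes did not form a single pattern. Of 15 arterial genes, 0 of 8 were higher and 3 lower at E13.5, 1 of 12 higher and 5 lower at E16.5, and 4 of 10 higher and 2 lower at P0, with medians of -0.84, -0.42 and 0.08. Sox17, a factor of arterial identity, held 32.5, 39.6 and 4.64 CPM in lymphatic cells against 86.5, 156 and 201 CPM. Efnb2, the ephrin-B2 gene of arteries and valves, held 13.7, 76.2 and 55.7 CPM against 49.6, 57.1 and 36.6 CPM, so lymphatic cells were lower only at E13.5. Notch1 held 60.0, 143 and 181 CPM against 61.1, 80.9 and 69.2 CPM, and 51.3% of its P0 UMIs came from 1 cell. Dll4, a Notch ligand, held 21.9, 31.7 and 32.5 CPM against 25.4, 34.3 and 43.5 CPM and passed the fold at no stage. Hey1, a Notch target, held 13.1, 6.93 and 55.7 CPM against 35.8, 30.8 and 20.1 CPM, with a UMI in 4 of 11 lymphatic cells at P0.

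The BMP and ALK1 pathway restrains sprouting in blood vessels. Of 15 genes, 4 of 9 were lower at E13.5, 3 of 12 at E16.5 and 0 of 11 at P0, while 0, 2 and 1 were higher (medians -0.75, -0.23 and -0.51). The receptor gene Acvrl1 (ALK1) held 17.5, 28.7 and 51.1 CPM against 54.2, 83.9 and 93.5 CPM. Its target Id1 held 62.5, 171 and 214 CPM against 223, 312 and 380 CPM. Id3 held 291, 648 and 320 CPM against 639, 818 and 620 CPM. The coreceptor gene Eng held 147, 354 and 223 CPM against 254, 389 and 390 CPM and passed the fold at no stage.

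In the angiopoietin pathway, which supports lymphatic remodelling, Tie1 held 119, 218 and 353 CPM against 92.3, 144 and 168 CPM and Tek 21.9, 32.7 and 79.0 CPM against 41.5, 68.2 and 58.3 CPM. Of its 6 genes 4 had enough UMIs, and Angpt2 was higher at each stage. Tie1 was higher at P0 as well, with a difference of 1.03, and lay just under the fold, at 346 CPM, in cells with at least 4 lymphatic genes. In the adrenomedullin pathway, needed for lymphatic growth, the ligand gene Adm held 5.00, 68.3 and 0 CPM, where 3 UMIs at P0 would be 13.9 CPM, against 24.2, 18.1 and 6.92 CPM. Its receptor gene Calcrl held 17.5, 55.4 and 79.0 CPM against 18.5, 38.5 and 43.1 CPM and the partner gene Ramp2 298, 504 and 1115 CPM against 350, 517 and 1005 CPM. Neither receptor gene passed the fold between the cell types at any stage.

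Among 21 guidance genes 2 of 12 were higher and 3 lower at E13.5, 3 of 15 higher and 2 lower at E16.5, and 3 of 11 higher and 2 lower at P0. Over all genes 1.6, 2.5 and 5.96% were higher and 2.03, 2.18 and 9.91% lower. The lists share genes, so their counts are not separate. Nrp2, Reln and Sema3d are also on the lymphatic list, Nrp1 and Robo4 on the blood vessel list, and Efnb2 on the arterial list. Nrp2 and Flt1 are also counted among the VEGF genes, Stab1 among the immune traffic genes and Itga9 among the valve genes. Sema3d, a secreted semaphorin, held 15.0, 71.3 and 27.9 CPM against 6.92, 3.76 and 1.32 CPM. The neuropilins split: Nrp2 was higher in lymphatic cells, whereas Nrp1, the coreceptor for VEGF-A and class 3 semaphorins, held 119, 116 and 4.64 CPM against 291, 341 and 146 CPM, and 74.2, 49.3 and 4.74 CPM with at least 4 lymphatic genes. Robo4, an endothelial guidance receptor, held 25.6, 52.5 and 18.6 CPM against 80.8, 120 and 172 CPM.

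Of 21 genes of immune cell traffic outside the rule, 2 of 7 were higher and 1 lower at E13.5, 3 of 8 higher and 2 lower at E16.5, and 2 of 6 higher and 1 lower at P0. The shares over all genes were 1.6, 2.5 and 5.96% higher and 2.03, 2.18 and 9.91% lower. Cd200, a ligand that dampens myeloid cells, held 61.8, 74.2 and 242 CPM against 23.1, 29.6 and 82.7 CPM. Spns2, the exporter of sphingosine 1-phosphate, held 18.1, 95.0 and 107 CPM against 17.3, 39.2 and 56.0 CPM. Icam1, a leukocyte adhesion molecule, held 8.74, 20.8 and 13.9 CPM against 42.7, 57.4 and 71.5 CPM. Ackr2, a chemokine scavenger of lymphatic endothelium, had no UMI in blood endothelial cells of any stage, and held 0, 3.96 and 32.5 CPM in lymphatic cells. Its P0 level came from 3 cells, with 71.4% of the UMIs in 1 of them. Among 13 junction genes, 1 of 10 was higher and 0 lower at E13.5, and 0 of 11 higher and 1 lower at E16.5. At P0 3 of 11 were higher and 2 lower. Jam2, an adhesion molecule, held 0.625, 13.9 and 0 CPM against 10.4, 40.7 and 99.8 CPM, while F11r (JAM-A) held 137, 181 and 455 CPM against 127, 182 and 253 CPM.

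Between stages, 213 of 6190 genes were higher in lymphatic cells at E16.5 than at E13.5 (3.44%) and 142 were lower (2.29%). From E16.5 to P0, 181 of 3624 genes were higher (4.99%) and 280 lower (7.73%). Counts of listed genes between stages below are to be read beside these shares. The 8 genes with the largest increase from E13.5 to E16.5 were Fgl2, Igfbp7, Gja4, Lgals7, Clca3a1, Fabp4, Tinagl1 and Aqp1. Fgl2, a secreted fibrinogen-like protein, stood at 5.00, 309 and 1003 CPM, against 2.31, 1.65 and 3.62 CPM in blood endothelial cells. It had a UMI in 6 of 133, 36 of 46 and 11 of 11 lymphatic cells, and after thinning in 2.26, 56.5 and 100%, against 0.418, 1.10 and 2.71% of the cells in neither group. Its difference between E16.5 and E13.5 was 4.41 (3.98 to 4.75), and -0.08 in blood endothelial cells. Clca3a1, a chloride channel accessory protein, went from 0.625 to 86.1 and 69.7 CPM, against 4.62, 5.64 and 17.1 CPM. Lgals7, an epidermal galectin, went from 1.87 to 110 and 107 CPM, and it stood at 9.04, 1182 and 3201 CPM in the cells of neither group. The part of free RNA in this increase was not tested. Igfbp7, Fabp4 and Aqp1 are abundant in blood endothelium, and in cells with at least 4 lymphatic genes they went from 26.6 to 374, from 30.2 to 148 and from 5.49 to 37.0 CPM. Where a Prox1 transcript was required, Fabp4 differed by -0.20 and Aqp1 by -0.34 between these stages, instead of 2.83 and 2.79. The increase of Fabp4 and Aqp1 thus depended on which cells were called lymphatic, whereas Igfbp7 differed by 3.25 with a Prox1 transcript required and by 3.76 in all lymphatic cells.

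Genes of lymphatic valves and collecting vessels formed a list of 17. Against blood endothelial cells 1 of 10 was higher and 1 lower at E13.5, 5 of 13 were higher and 0 lower at E16.5, and 7 of 12 were higher and 2 lower at P0, with medians of 0.13, 0.72 and 1.25. From E13.5 to E16.5, 6 of 12 were higher in lymphatic cells and 0 lower (median 1.0, all genes -0.051). Foxc2, the forkhead factor of valve formation, stood at 5.00, 33.7 and 97.5 CPM, against 2.31, 0.235 and 0 CPM. Nfatc1, a calcineurin-dependent factor, stood at 31.2, 142 and 107 CPM against 17.3, 25.2 and 33.9 CPM. Gja4, the connexin 37 gene of arteries and valves, stood at 16.9, 272 and 172 CPM against 152, 104 and 49.4 CPM. Lymphatic cells were the lower group at E13.5 and the higher group afterwards. At P0 62.2% of its UMIs came from 1 of 5 cells with any, and without cells of more than 2-fold the median UMIs the difference at P0 was 0.54 instead of 1.61, whereas without the deepest cell of each stage it was 2.13. Cldn11, a tight junction claudin, stood at 12.5, 21.8 and 79.0 CPM against 3.46, 4.0 and 1.32 CPM. At P0 52.9% of its UMIs came from 1 cell. Itga9, an integrin of valve leaflets, held 41.8, 40.6 and 46.4 CPM against 13.8, 12.9 and 16.1 CPM.

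**Figure D4:**
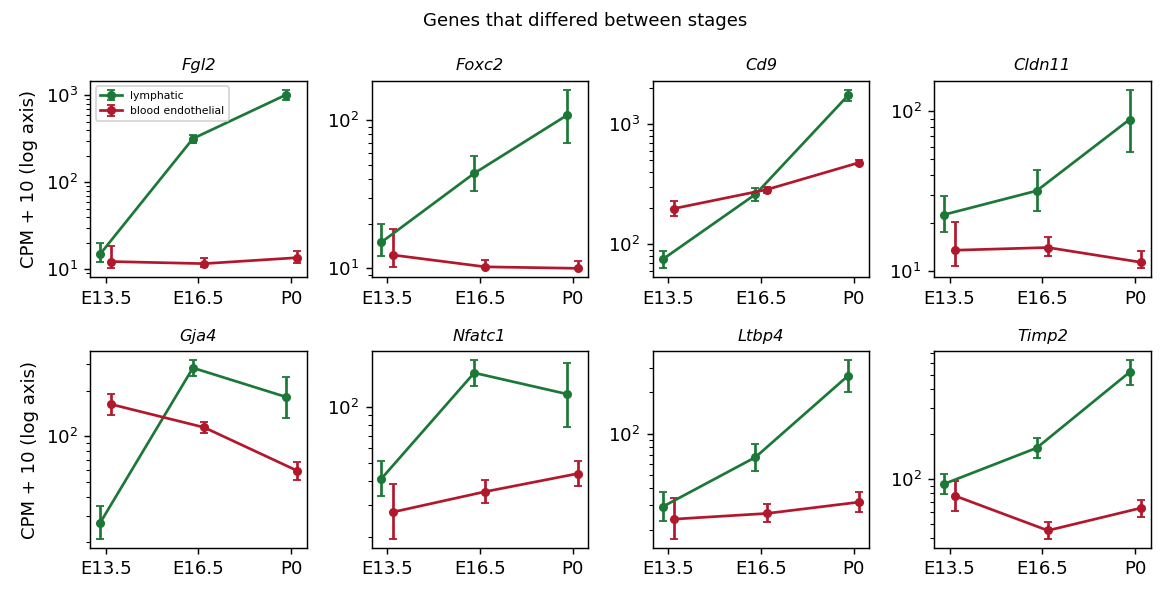
Level (CPM + 10, log axis) of 8 genes by stage in lymphatic (green) and blood endothelial cells (red), with exact Poisson intervals. Fgl2 reached 1003 CPM and Foxc2 97.5 CPM in lymphatic cells at P0, and Gja4 crossed the blood endothelial level between E13.5 and E16.5.

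Within E16.5, 17 of 46 lymphatic cells had a Foxc2 UMI, 29 had Gja4 and 16 had both. At E13.5, 8 of 133 had Foxc2, 11 had Gja4 and 0 had both. At P0, 6 of 11 had Foxc2, 5 had Gja4 and 3 had both. Foxc2 and Cldn11 were found together in 4, 7 and 4 cells. These counts follow cell depth as well as gene level. Among blood endothelial cells, 2 of 89, 1 of 260 and 0 of 262 had Foxc2 and 23, 51 and 47 had Gja4. After thinning, Foxc2 was found at E16.5 in 9 of 46 lymphatic and 0 of 260 blood endothelial cells (exact 95% interval up to 1.41%), and Gja4 in 21 and 33 cells. At E13.5 Foxc2 stood no higher in lymphatic cells (5.00 CPM) than in the cells of neither group (6.17 CPM). The part of free RNA in this level was not tested.

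From E16.5 to P0 the largest increases included Nupr1, Plpp1, Ifitm3, Angptl4, Nts, Cd9 and Lmna. Nupr1, a stress-responsive nuclear protein, went from 3.96 to 255 CPM, with 60.0% of its UMIs in 1 cell, against 2.35 and 7.58 CPM in blood endothelial cells. Ifitm3, an interferon-induced membrane protein, Angptl4, a secreted lipase inhibitor, and Lmna, the lamin A/C gene, were higher in both groups, by 2.88, 2.87 and 2.73 in lymphatic and 2.77, 2.78 and 2.46 in blood endothelial cells (log2). Cd9, a tetraspanin, stood at 65.0, 251 and 1728 CPM against 188, 275 and 469 CPM. Ltbp4, a latent TGF-beta binding protein, stood at 19.4, 57.4 and 255 CPM against 13.8, 16.2 and 21.7 CPM. The largest falls were in Gm42418, Rgcc, Aplnr, Pcdh17, Hist1h1b, Fibin, Fosb and Col15a1. In cells with at least 4 lymphatic genes at E16.5, Rgcc, Aplnr and Col15a1 stood at 30.8, 37.0 and 28.4 CPM, against 127, 107 and 89.1 CPM in all lymphatic cells, and Gm42418 also fell by 3.22 in blood endothelial cells.

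The 8 genes with the largest decrease from E13.5 to E16.5 were Hbb-y, Hba-x, Hba-a1, Hbb-bh1, Hba-a2, Ptn, Hbb-bt and Tubb3. Of these, 6 encode globins, the main proteins of red blood cells. The 7 globin genes summed to 20038, 941 and 302 CPM in lymphatic cells and 41340, 4361 and 694 CPM in blood endothelial cells, and the part of free RNA was not tested. The 10 macrophage genes summed to 117, 52.5 and 51.1 CPM in lymphatic and 426, 56.7 and 85.3 CPM in blood endothelial cells, whose rule has no immune criterion; Tyrobp held 106 CPM in the latter at E13.5. The 7 dermal genes summed to 1697, 2867 and 859 CPM in lymphatic and 2377, 2738 and 2497 CPM in blood endothelial cells. The 7 epithelial genes summed to 68.7, 317 and 288 CPM against 64.6, 888 and 586 CPM. The 7 mural genes summed to 81.2, 58.4 and 32.5 CPM against 211, 63.9 and 216 CPM, with Myh11 at 0 in lymphatic cells throughout. Of 14 genes induced by tissue dissociation, 0 of 7 and 0 of 11 passed the fold at E13.5 and E16.5, whereas 11 of 13 were lower at P0 (median -2.03, or -1.92 with genes at 0 UMIs set to 3 UMIs). Fos, an immediate early gene, held 92.9 CPM in lymphatic and 931 CPM in blood endothelial cells there. In lymphatic cells 5 of 8 dissociation genes were higher at E16.5 than at E13.5 and 0 lower (median 1.44), and 3 of 8 were lower and 0 higher at P0 than at E16.5 (median -0.55). Over all genes 3.44% were higher at E16.5 than at E13.5, and 7.73% lower at P0 than at E16.5. In blood endothelial cells 5 of 11 dissociation genes were higher and 0 lower at E16.5 than at E13.5 (median 0.61). From E16.5 to P0, 8 of 13 were higher there and 0 lower (median 1.3). The part of dissociation genes in the differences at P0 and between stages, those of the valve genes included, was not tested.

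Of 15 mitotic genes, 5 were lower and 0 higher in lymphatic cells at E16.5 than at E13.5 (median -0.84), and 3 of 11 were lower and 0 higher at P0 than at E16.5 (median -0.64). Over all genes 2.29 and 7.73% were lower in lymphatic cells at these steps, and 3.44 and 4.99% higher. In blood endothelial cells 0 of 15 mitotic genes passed the fold at the earlier step (median -0.32). At the later step 8 of 15 were lower there and 0 higher (median -1.05). In cells with at least 4 lymphatic genes only 1 of 15 was lower at the earlier step, though the median was -0.85. At the later step 3 of 11 were lower in those cells (median -0.74). Of the DNA replication genes, 2 of 14 were lower and 0 higher in lymphatic cells at the earlier step (median -0.48), and 0 of 9 passed the fold at the later step (median 0.26). In blood endothelial cells 0 of 15 passed the fold at the earlier step (median -0.2). At the later step 6 of 15 were lower there and 0 higher (median -0.97). Against blood endothelial cells no mitotic gene passed the fold at any stage, with medians of 0.19, -0.34 and 0.16. After thinning, at least 3 mitotic genes were found in 87.2% of lymphatic cells at E13.5 (80.3 to 92.4%), 41.3% at E16.5 (27.0 to 56.8%) and 18.2% at P0 (2.28 to 51.8%). The blood endothelial shares were 82.0, 53.5 and 22.9%. Unthinned, the lymphatic shares were 97.0, 71.7 and 45.5%. Of 15 genes of DNA replication none passed the fold against blood endothelial cells at E13.5 or E16.5 (medians 0.09 and -0.38), while 4 of 12 were higher and 0 lower at P0 (median 0.79). At least 3 of them were found after thinning in 68.4, 30.4 and 27.3% of lymphatic cells and 60.7, 48.9 and 17.6% of blood endothelial cells. The intervals of the 2 cell types overlapped for both gene lists at every stage but were wide at P0. Cdkn1c, an inhibitor of cyclin-dependent kinases, held 756, 352 and 79.0 CPM in lymphatic and 1314, 401 and 144 CPM in blood endothelial cells.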

How the data were processed

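Skin single-cell libraries of 3 stages were analysed, 1 per stage. The authors aligned reads to mm10 with Cell Ranger 2.2.0 (submitters' processing notes), removed cells with few genes and deposited natural log values of UMIs scaled to 10000 per cell. Every one of 48197283 values above 0 gave a whole UMI within 0.001, and the recovered counts were summed over the cells of a group. No column lacked a sample. Differences are log2 of CPM + 10, with intervals built from exact Poisson limits; called genes reached 1 with at least 50 UMIs. Shares have exact Clopper-Pearson intervals, and 3 UMIs limit a count of 0. The calculation was tested on Poisson counts simulated from summed UMIs. These hold no spread between cells, so the test does not cover such spread. Named genes were all list genes shown as examples, the 12 highest and 12 lowest at every stage, the 8 highest and 8 lowest per stage change, and near copies of Ccl21a. The members and lists were chosen with earlier results of these data known. Scrublet (scanpy 1.11.5, expected rate 0.06) called 0 doublets at E13.5, where it did not work, 77 at E16.5 and 101 at P0; a second random seed gave 0, 84 and 106. Doublets were kept in the main values. Thinning drew 3400 UMIs per cell without replacement, and no cell held fewer. Depth per group is in the report, and alternatives are in the closing section. Positions are from GENCODE on GRCm38 (mm10). Of the genes these rules name, 2 are not reported here.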

Additional observations from a re-analysis of the deposited data

Results flagged for a closer look

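Of 8562 genes with enough UMIs at any stage, 5 passed the fold in opposite directions at different stages (0.0584%), and 3 of them were on the lists used here. None of these differences between stages was tested, since each stage has 1 library. Gja4 differed between lymphatic and blood endothelial cells by -2.59, 1.30 and 1.61 (log2; E13.5, E16.5 and P0 in this order). Cd9 differed by -1.40, -0.13 and 1.86. Hey1, a Notch target, differed by -0.99, -1.27 and 1.13, and its level at P0 came from 4 of 11 cells.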

How the results depend on the processing

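Depth limits a single value at P0, where 11 cells were compared and 1 UMI is 4.64 CPM. Over 97 named genes, 485 differences gave 7178 values under alternative settings: 5994 stayed within the counting interval, 1166 moved outside it and 18 reversed. The cause of the changes below was not tested. Applying the rule after thinning gave 84 lymphatic cells at E13.5 and 207, 393 and 112 lower genes (E13.5, E16.5, every stage); Aqp1, Rgcc, Cd34 and Ly6e then differed by -0.59, -0.53, -0.20 and -0.44 from E13.5 to E16.5, and Aqp1 and Sparcl1 by 0.76 and 0.18 from E16.5 to P0. Requiring Prox1 gave 347 lower genes at E16.5; Aqp1, Aplnr, Cd34, Ly6e and Fabp4 differed by -0.34, -0.64, -0.09, -0.03 and -0.20 at the earlier step and Aqp1 by 0.40 at the later. At least 4 lymphatic genes left 84 cells at E13.5 and gave 350 lower genes at E16.5. All 5 genes, chosen after seeing the data, left 41 cells and gave 388; Aqp1, Rgcc, Ly6e and Fabp4 differed by -0.25, -0.05, -0.67 and -0.04, and Aqp1 later by 0.82. Stricter immune criteria gave 173 genes lower at P0 than at E16.5. Without cells over 2-fold the median UMIs, 12 genes were higher and 33 lower at every stage, and 80 lower at E13.5. At least 2500 genes per cell left 7 cells at P0. Comparison cells with 0 lymphatic genes gave 169 higher and 78 lower at E13.5, and 27 lower at every stage. Comparison cells gated like the lymphatic cells gave 182 higher and 274 lower at E13.5, 363 lower at E16.5, 67 higher and 92 lower at every stage, and Col15a1 at 0.13 at E13.5. Means of single cells gave 227 genes lower at E16.5 than at E13.5. Adding 1 CPM gave 149, 337 and 48 higher (E13.5, E16.5, every stage), 435 lower at E16.5 and 294 lower at E16.5 than at E13.5. A minimum of 20 UMIs gave 579 higher at P0, 52 higher at every stage, and 293 higher and 643 lower at P0 than at E16.5. A minimum of 100 UMIs gave 56 higher and 74 lower at E13.5, 223 higher at P0, 12 higher and 31 lower at every stage, 133 higher and 88 lower at E16.5 than at E13.5, and 87 higher and 108 lower at P0 than at E16.5. Leaving out the deepest cell of each stage, and comparison cells with 0 immune genes, were also chosen after seeing the data. Both cell types were measured in each of the 3 libraries, but no analysis paired within libraries was run. The libraries are different stages, and the cells were chosen by their transcripts.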
